A study of Mus musculus with 30 samples.

Results

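The genes described here are the neurotrophins and neurotrophin receptors Ntf5, Ntf3, Bdnf, Ntrk2, Ntrk3 and Ngfr, 6 of the 56748 genes counted by RNA-seq in mouse quadriceps. They were taken by name, and Ntf5 was included because of its levels in the wild-type, nontreated and 42.4 mg/kg libraries. The differences of Ntf5 between those 3 groups are therefore given as values without a test. All 6 genes passed the filter on low counts.

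Neurotrophins are secreted survival and growth factors of neurons. Each is made as a precursor that is cleaved either inside the cell by furin-type convertases or outside it by plasmin and matrix metalloproteinases. The mature factors signal through Trk receptor tyrosine kinases: BDNF and neurotrophin-4 through TrkB, and neurotrophin-3 through TrkC. All of them also bind the p75 neurotrophin receptor, which together with sortilin binds the uncleaved precursors. In skeletal muscle, neurotrophin-4 is known as a fibre-derived factor whose production follows nerve activity and which acts on motor neurons and the neuromuscular junction.

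The study tested whether an antisense oligonucleotide carried by a bottlebrush polymer changes the muscle of a mouse model of DM1, the form of myotonic dystrophy caused by a CTG repeat. The HSA-LR20b animals carry a human skeletal actin transgene with a long CTG repeat in its 3′ untranslated region, expressed in skeletal muscle from its own promoter, so they model the toxic CUG-repeat RNA in muscle fibres and not loss of the DM1 gene. L9 is a short oligonucleotide of locked nucleic acid bases complementary to the CUG repeat, and pacDNA is L9 joined to a polyethylene glycol bottlebrush. Treatment began at 8 weeks of age by tail vein, and muscle was taken 2 weeks after the last injection.

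Untreated FVB/N wild-type mice (WT, 5 libraries) and nontreated HSA-LR mice (NT, 8 libraries) were set beside 6 treated HSA-LR groups. Conjugated L9, pacDNA-L9, was given to 4 mice at a total of 5.3 mg/kg, to 3 mice at 21.2 mg/kg and to 3 mice at 42.4 mg/kg. Unconjugated L9 at 5.3 mg/kg went to 3 mice (free L9), the bare polymer at 40 nmol to 2 (Brush) and the polymer with a scrambled oligonucleotide at 5.3 mg/kg to 2 (pacDNA-Scr). Every group other than WT carries the transgene on the FVB/N strain, as far as the labels give a strain. The higher pacDNA-L9 doses were given as repeated injections, so total dose and number of injections cannot be told apart. By expression of sex-linked genes, all 3 mice at 42.4 mg/kg were female, against 4 of the 8 NT and 4 of the 5 WT mice.

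Libraries held 13605309 to 26956558 counts. Of the 30 libraries, 6 (NT 7 and NT 8, pacDNA-L9 5.3 mg/kg C and D, pacDNA-L9 21.2 mg/kg C and free L9 C) were deposited without a strain label and stood apart from the other 24, and 5 of these 6 held 0 mitochondrial counts. They are called set 2, the other 24 set 1, and the groups WT, 42.4 mg/kg, Brush and pacDNA-Scr have set 1 libraries alone. Every library at 42.4 mg/kg had a deposited column name made of group and number. In NT and WT only NT 6 and the unnumbered WT library had such a name. This name style and the 42.4 mg/kg dose can therefore hardly be told apart. The summed level of 10 muscle fibre markers was between 115317 and 217469 in every library, in CPM, the count of a gene scaled to the size of its library. In bulk RNA, fewer cells of a type and less RNA per cell cannot be told apart.

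Levels were low for all members except Ntf5. Per kilobase of annotated exon, the median level over the 30 libraries was 3.95 CPM for Ntf5 (neurotrophin-4), 0.790 for Ntf3 (neurotrophin-3), 0.464 for Ngfr (the p75 receptor), 0.143 for Bdnf, 0.136 for Ntrk2 (TrkB) and 0.0305 for Ntrk3 (TrkC). Ntf5 thus stood highest and Ntrk3 lowest. The order of Bdnf and Ntrk2 turned with the length used: per kilobase of the longest transcript Ntrk2 was at 0.450 CPM and Bdnf at 0.246. Reads behind these medians were few, with a median of 230 counts a library for Ntf5, 79 for Ntrk2, 31 for Ngfr, 26 for Ntf3, 21 for Bdnf and 17 for Ntrk3.

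**Figure D1:**
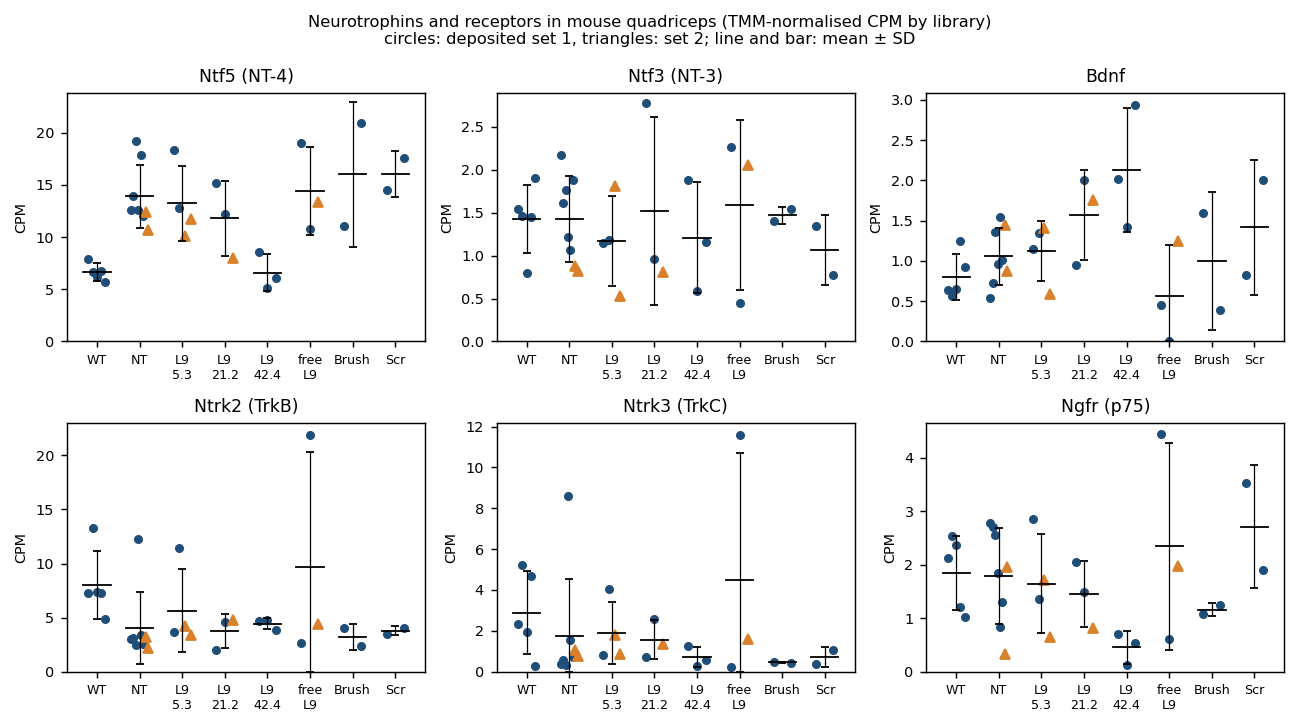
Level of each gene in CPM (linear axis from 0) in every library of the 8 groups, with the line and bar giving the mean ± SD and bars cut off at 0. Ntf5 in all 8 NT libraries lies above all 5 WT libraries and all 3 libraries at 42.4 mg/kg, and the mean of Ngfr is lowest at 42.4 mg/kg, at 0.455 CPM.

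Few members differed in any comparison. With edgeR's quasi-likelihood test across 17518 genes and a Benjamini-Hochberg adjusted p under 0.05, 1 of the 6 members, Ntf5, was called between NT and WT, where 4.97% of all genes tested were called. Again 1 of 6, Ntf5, was called between 42.4 mg/kg and NT, beside 2.57% of all genes. Both calls are on the libraries that chose Ntf5, and nothing is read from them. Between 42.4 mg/kg and WT edgeR called 0 of 6 members, beside 7.90% of all genes. In that comparison 2 members had an unadjusted p under 0.05, as had 19.7% of all genes, and DESeq2 called 1, Ngfr, beside 11.3% of all genes.

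Members were called 0 times by edgeR and 0 times by DESeq2 in the other 7 comparisons. All genes called by edgeR came to 0% for pacDNA-L9 5.3 mg/kg against NT, 0.0514% for 21.2 mg/kg, 0.126% for free L9, 0% for Brush and 0% for pacDNA-Scr against NT, 0.0114% for pacDNA-L9 5.3 mg/kg against free L9 and 0% for pacDNA-L9 5.3 mg/kg against pacDNA-Scr. By DESeq2 the share was between 0.00308% (5.3 mg/kg against NT) and 1.58% (5.3 mg/kg against pacDNA-Scr). Within set 1 edgeR called 2.24% of genes for free L9 against NT and 0.916% for 5.3 mg/kg against free L9, and again 0 members. At an unadjusted edgeR p under 0.05 the count was 1 member, Ntrk2, for free L9 against NT, where 9.37% of all genes were under it, and 0 members in each of the other 6, where 1.04% to 8.04% of all genes were.

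**Figure D2:**
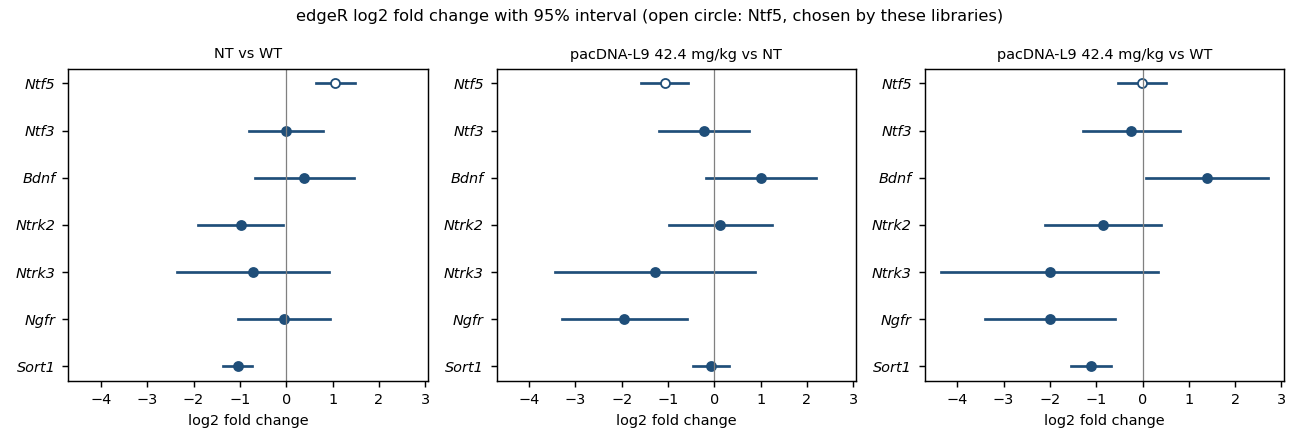
Log2 fold change with its 95% interval from edgeR for the 6 genes and for Sort1, in NT against WT, 42.4 mg/kg against NT and 42.4 mg/kg against WT. Open circles mark Ntf5, which was chosen on these libraries, and among the filled circles the interval of Sort1 lies below 0 in both comparisons with WT, at a log2 fold change of -1.05 for NT and -1.12 for 42.4 mg/kg.

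Ntf5 encodes neurotrophin-4, a TrkB ligand. Its level in WT 1 to 4 and the unnumbered WT library was 7.95, 6.63, 6.22, 6.80 and 5.70 CPM. In the 8 NT libraries it ranged from 10.7 to 19.2 CPM with a median of 12.6, and NT 7 and NT 8 of set 2 were at 12.4 and 10.7. The groups did not overlap, and the NT level was 2.09-fold that of WT, a log2 difference of 1.06 (SE 0.20) that within set 1 was 1.15. The 3 libraries at 42.4 mg/kg held 8.53, 5.14 and 6.12 CPM. These lay below every NT library and over the WT range, at 0.475 of the NT level (log2 difference -1.07, SE 0.25) and at a log2 difference of -0.01 (SE 0.25) from WT.

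With the other treatments Ntf5 was within or near the NT range. pacDNA-L9 at 5.3 mg/kg gave 18.3, 12.8, 10.1 and 11.7 CPM in libraries A to D, and at 21.2 mg/kg 15.2, 12.2 and 8.03 CPM. Only 5.3 mg/kg C and 21.2 mg/kg C, both of set 2, were below the lowest NT library. Free L9 gave 19.0, 10.8 and 13.4 CPM, Brush 11.1 and 20.9, and pacDNA-Scr 14.5 and 17.6. All of these were above the highest WT library. Ordered by mean, the groups ran from 6.60 CPM at 42.4 mg/kg and 6.66 in WT, through 11.8 at 21.2 mg/kg, 13.2 at 5.3 mg/kg, 13.9 in NT and 14.4 with free L9, to 16.0 with Brush and 16.1 with pacDNA-Scr. The first 2 groups overlapped each other, as did the last 6, and 21.2 mg/kg C, at 8.03 CPM, was below the highest library at 42.4 mg/kg.

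Against NT, whose libraries chose the gene, the log2 fold change of Ntf5 was -0.07 (SE 0.21) at 5.3 mg/kg, -0.24 (SE 0.23) at 21.2 mg/kg, 0.05 (SE 0.23) with free L9, 0.20 (SE 0.27) with Brush and 0.21 (SE 0.27) with pacDNA-Scr. All 5 comparisons share the NT libraries. Those of 5.3 mg/kg and free L9 turned sign with a change in processing, and that of Brush was -0.33 without Brush B, so these 3 carry no direction. A pair of comparisons at the matched dose used none of the libraries behind the choice. pacDNA-L9 5.3 mg/kg differed from free L9 by -0.12 (95% interval -0.66 to 0.41, adjusted p = 0.968) and from pacDNA-Scr by -0.28 (95% interval -0.89 to 0.32, adjusted p = 0.938). No difference in Ntf5 was thus detectable at this dose, and the intervals still allow changes of -0.66 and -0.89.

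Ntf5 lies on chromosome 7 (GRCm39 chr7:45063082-45066604, plus strand), 2009 bases downstream of Kcna7, a voltage-gated potassium channel gene on the same strand. Of its 3064 annotated exon bases, 1136 (37.1%) lie under exons of Ruvbl2, an ATPase gene on the opposite strand. The strand setting of the counting is not given in the sources used here, so reads of Ntf5 and Ruvbl2 may not be separable there. Ruvbl2 itself was at 27.0 to 30.2 CPM in WT and 25.7 to 30.1 CPM in the 6 NT libraries of set 1, which overlap, while NT 7 and NT 8 held 60.0 and 73.7 CPM. Ntf5 was above the WT range in all 8 NT libraries, whereas Ruvbl2 was above it only in NT 7 and NT 8. With 42.4 mg/kg Ruvbl2 held 21.5, 14.1 and 18.8 CPM, below every NT library. The log2 fold change was -1.04 (SE 0.42, adjusted p = 0.265) with NT 7 and NT 8 among the NT libraries and -0.62 (SE 0.16, adjusted p = 0.0332) within set 1. The part of Ruvbl2 in the Ntf5 values was not tested.

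Kcna7 followed a like order. WT libraries held 129, 160, 145, 143 and 97.6 CPM, and the NT libraries ranged from 145 to 299 CPM with a median of 224. The highest WT library was above NT 7 alone. The log2 fold change was 0.74 (SE 0.26, adjusted p = 0.113), and within set 1 it was 0.89 (adjusted p = 0.0281). The 42.4 mg/kg libraries held 137, 116 and 117 CPM, below all NT libraries, with a log2 fold change of -0.87 (SE 0.32, adjusted p = 0.193). This difference passed the threshold by DESeq2 (adjusted p = 0.0439), with only those groups in the edgeR fit (adjusted p = 0.0391) and without the 3 libraries highest in adipocyte markers (adjusted p = 0.0493). Free L9 B stood lowest of all libraries at 50.2 CPM.

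**Figure D3:**
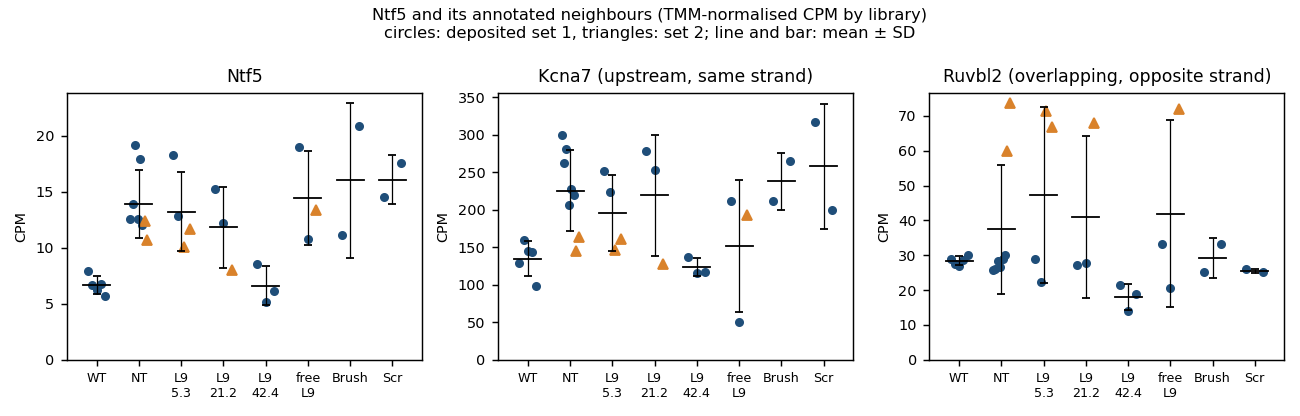
CPM of Ntf5, Kcna7 and Ruvbl2 (linear axes from 0) in every library by group, circles for set 1 and triangles for set 2, with mean ± SD. Ruvbl2 separates the 6 set 2 libraries, at 60.0 CPM and above, from set 1, while the group means of Ntf5 and Kcna7 are lowest at 42.4 mg/kg, at 6.60 and 123 CPM, and in WT, at 6.66 and 135 CPM.

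Ntf3 encodes neurotrophin-3, the TrkC ligand of proprioceptive neurons. WT libraries held 1.54, 1.46, 0.802, 1.45 and 1.90 CPM, NT libraries ranged from 0.820 to 2.17 CPM with a median of 1.41, and the 42.4 mg/kg libraries held 1.88, 0.591 and 1.16 CPM. These groups overlapped throughout. The log2 fold change was -0.01 (95% interval -0.81 to 0.80, adjusted p = 0.997) in NT against WT, with a sign that turned under other settings, and -0.23 (-1.20 to 0.74, adjusted p = 0.883) at 42.4 mg/kg against NT. Of its exon bases 12.3% lie under the opposite-strand lncRNA Gm67883.

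Bdnf encodes brain-derived neurotrophic factor, the other TrkB ligand. It held 0.636, 0.562, 0.652, 1.25 and 0.925 CPM in WT, 0.543 to 1.54 CPM in NT with a median of 0.989, and 2.02, 1.42 and 2.94 CPM at 42.4 mg/kg. All 3 libraries at 42.4 mg/kg lay above WT, and 2 of them above every NT library. The log2 fold change was 0.39 (SE 0.52, adjusted p = 0.723) in NT against WT, 1.01 (SE 0.58, adjusted p = 0.437) at 42.4 mg/kg against NT and 1.40 (SE 0.64, 95% interval 0.08 to 2.71, adjusted p = 0.218) at 42.4 mg/kg against WT. None of these passed the threshold. Fitted on those 2 groups alone, the comparison with WT gave 1.40 with an adjusted p of 0.0287. That fit called 14.5% of all genes, beside 7.90% in the fit of all libraries. Bdnf in free L9 B was at 0 counts, and 13.5% of its exon bases lie under the opposite-strand lncRNA Gm45346.

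At the lower doses Bdnf overlapped NT. The 5.3 mg/kg libraries held 1.15, 1.35, 1.41 and 0.587 CPM, all inside the NT range and below every library at 42.4 mg/kg. The 21.2 mg/kg libraries held 0.944, 2.01 and 1.76, and 2 of these were above every NT library. The NT mean was 1.06 CPM, and the means of the 3 doses in ascending order were 1.13, 1.57 and 2.13 CPM, with neighbouring groups overlapping at each step. The 8 macrophage markers had summed levels of 41.2 to 68.3 CPM in WT, 50.4 to 93.5 in NT and 137 to 195 at 42.4 mg/kg, where 6 of the 8 were higher than in NT and none was at 0 in every library. Their part in the Bdnf values was not tested.

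Ntrk2 encodes TrkB, the receptor of BDNF and neurotrophin-4. Its WT libraries held 7.31, 13.3, 7.32, 7.25 and 4.88 CPM, whereas NT ranged from 2.15 to 12.3 CPM with a median of 3.06. All NT libraries except NT 4, at 12.3 CPM, lay below every WT library. With NT 4 the log2 fold change in NT against WT was -0.98 (SE 0.45, 95% interval -1.91 to -0.06, adjusted p = 0.221), and without it -1.48 (SE 0.39, adjusted p = 0.0244). The 42.4 mg/kg libraries held 4.64, 4.78 and 3.87 CPM of Ntrk2. These were above the NT libraries other than NT 4 and below all WT libraries, with log2 fold changes of 0.13 (95% interval -0.99 to 1.25, adjusted p = 0.946) against NT, where the sign turned under other settings, and -0.85 (-2.10 to 0.40, adjusted p = 0.501) against WT.

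Ntrk3 encodes TrkC, the receptor of neurotrophin-3. WT libraries held 2.33, 5.22, 1.96, 4.70 and 0.257 CPM, NT ranged from 0.341 to 8.61 CPM with a median of 0.746, and 42.4 mg/kg gave 1.27, 0.295 and 0.581 CPM. The groups overlapped, and NT 4 again stood highest of the NT libraries. In NT against WT the log2 fold change was -0.72 (SE 0.80, adjusted p = 0.657), and without NT 4 it was -1.90 (adjusted p = 0.120). For 42.4 mg/kg it was -1.28 (SE 1.05, adjusted p = 0.603) against NT, where leaving out NT 4 gave -0.10, and -2.00 (SE 1.14, adjusted p = 0.358) against WT. The opposite-strand lncRNA Gm9885 covers 1.24% of its exon bases.

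The Trk receptors were high together in the same libraries. Free L9 B held 21.9 CPM of Ntrk2 and 11.6 CPM of Ntrk3, the highest level of each in the 30 libraries, and pacDNA-L9 5.3 mg/kg B held 11.4 and 4.06 CPM against 3.36 to 4.18 and 0.824 to 1.81 in the other 3 of its group. Across the 24 libraries of set 1 the log2 CPM values of Ntrk2 and Ntrk3 had a Pearson r of 0.85, a description of libraries that share 8 groups and carry no p here.

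Adipocyte markers moved with both receptors. The summed level of 9 markers (Adipoq, Plin1, Lep, Cidec, Fabp4, Cfd, Lipe, Retn and Acvr1c), a list added after the data were seen, was 2268 CPM in NT 4 against 125 to 486 in the other NT libraries, 1944 in free L9 B, 1196 in pacDNA-L9 5.3 mg/kg B, 349 to 1116 in WT and 287 to 407 at 42.4 mg/kg. None of the 9 was called in any comparison, and none was at 0 in every library. Over the 24 set 1 libraries, r with the adipocyte sum was 0.89 for Ntrk2 and 0.90 for Ntrk3, and 0.81 for each over the 21 libraries left without the 3 highest. With the summed level of 12 Schwann cell markers it was 0.06 and 0.13 over the 24 libraries, and 0.26 and 0.38 over those 21.

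With the adipocyte level as a covariate, the NT against WT log2 fold change was -0.52 (adjusted p = 0.266) for Ntrk2 and -0.15 (adjusted p = 0.872) for Ntrk3. Without the 3 libraries highest in adipocyte markers it was -1.48 (adjusted p = 2.02e-04) and -1.89 (adjusted p = 0.0434). These libraries were picked after the data were seen. Among them is NT 4, the only NT library not below every WT library in Ntrk2. WT 2, with a marker sum of 1116 CPM, was kept. The p-values thus follow in part from this choice, and nothing is read from them. Schwann cell markers summed to 122 to 305 CPM in WT and 68.9 to 131 in NT, where 3 of the 12 fell, Prx and Mbp among them. The part of either cell type in the receptor levels was not tested beyond these fits.

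**Figure D4:**
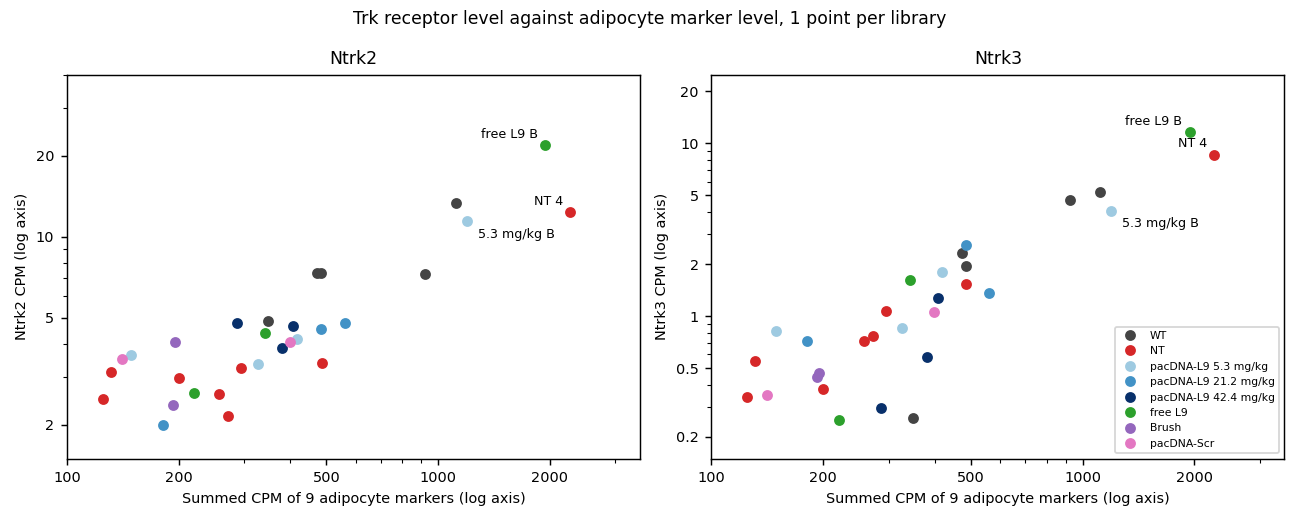
CPM of Ntrk2 (left) and Ntrk3 (right) against the summed CPM of 9 adipocyte markers, both on log axes, with 1 point per library coloured by group. NT 4, free L9 B and pacDNA-L9 5.3 mg/kg B, with marker sums of 2268, 1944 and 1196 CPM, sit at the upper right in both panels.

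Ngfr encodes the p75 neurotrophin receptor, known in muscle from immature fibres and from Schwann cells. Its transcripts hold the longest CTG run among the members, which is why the stretch is shown, since L9 is complementary to CUG repeats. The run of 7 CTG, in capitals with 10 bases on each side, lies in the coding sequence at GRCm39 chr11:95478319-95478339 on the minus strand, at bases 223 to 243 of the 3446-base transcript ENSMUST00000000122.7 (GENCODE annotation). Ntrk2 holds a run of 3 CTG, at chr13:59275176-59275184 on the plus strand, in the coding sequence of 1 of its 40 transcripts.
Ngfr: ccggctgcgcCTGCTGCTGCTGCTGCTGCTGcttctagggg
Ntrk2: tacttccagcCTGCTGCTGtttgggtgca

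The letters CTGCTGCTG were searched on the sense strand of all annotated transcripts, and Ntf5, Ntf3, Bdnf and Ntrk3 hold none. They occur in 3642 of 17420 tested genes with transcripts (20.9%), and a run of at least 7 CTG in 76 (0.436%). Of these 76 genes, 5 were higher and 1 lower at 42.4 mg/kg than in NT (7.89% called, beside 2.57% of all genes). Of the 3642 genes with a run of at least 3, 78 were higher and 37 lower (3.16% called). The median log2 fold change was 0.00 for the 76 genes and -0.03 for the 3642, against -0.06 over all genes. A match describes the sequence and says nothing of binding.

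Ngfr was at 2.12, 2.53, 2.36, 1.20 and 1.03 CPM in WT and at 0.325 to 2.77 CPM in NT, with a median of 1.90. These groups overlapped fully (log2 fold change -0.05, 95% interval -1.04 to 0.95, adjusted p = 0.971), with a sign that turned under other settings. The 42.4 mg/kg libraries held 0.703, 0.118 and 0.542 CPM, from 15, 2 and 14 counts. All 3 lay below the WT libraries and below 7 of the 8 NT libraries, with NT 7 of set 2 at 0.325 CPM inside their range. Against NT the log2 fold change was -1.95 (SE 0.65, 95% interval -3.29 to -0.60), at 0.260 of the NT level, with an unadjusted p of 0.00638 and an adjusted p of 0.138.

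Against WT, Ngfr at 42.4 mg/kg had a log2 fold change of -1.99 (SE 0.68, 95% interval -3.40 to -0.59, adjusted p = 0.0752). Neither comparison passed the threshold in the edgeR fit of all 30 libraries. DESeq2 on the same counts gave adjusted p-values of 0.0200 against NT and 0.0214 against WT. Within set 1, edgeR gave -2.09 (adjusted p = 0.0616) against NT and -1.97 (adjusted p = 0.0382) against WT. Leaving out 42.4 mg/kg B, the library with 2 counts, gave -1.51 (adjusted p = 0.656) against NT. Schwann cell marker sums were 85.9 to 139 CPM at 42.4 mg/kg and 68.9 to 131 in NT, over much the same range, while the macrophage marker sums given with Bdnf were higher at 42.4 mg/kg than in every NT library, and their part in the Ngfr values was not tested.

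At the lower doses and with the other treatments Ngfr was within the NT range or above it. pacDNA-L9 at 5.3 mg/kg gave 2.86, 1.35, 1.72 and 0.640 CPM and at 21.2 mg/kg 2.05, 1.49 and 0.815 CPM. Free L9 gave 4.43, 0.617 and 1.97 CPM, Brush 1.07 and 1.24, and pacDNA-Scr 3.52 and 1.90. Each of these groups overlapped NT. Group means ran from 0.455 CPM at 42.4 mg/kg through 1.15 with Brush, 1.45 at 21.2 mg/kg, 1.64 at 5.3 mg/kg, 1.79 in NT, 1.85 in WT and 2.34 with free L9 to 2.71 with pacDNA-Scr. From Brush upwards, neighbouring groups overlapped. Among female mice, Ngfr was at 0.325 to 2.56 CPM in 4 NT libraries and 1.03 to 2.53 CPM in 4 WT libraries.

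Log2 fold changes over the 6 members in the other comparisons with NT ran from -0.28 (Ntf3) to 0.48 (Ntrk2) at 5.3 mg/kg against NT and from -0.30 (Ngfr) to 0.57 (Bdnf) at 21.2 mg/kg. Free L9 against NT spanned -0.93 (Bdnf) to 1.36 (Ntrk3), Brush -1.93 (Ntrk3) to 0.20 (Ntf5), and pacDNA-Scr -1.29 (Ntrk3) to 0.60 (Ngfr). Within set 1 Bdnf with free L9 was at -2.10, where free L9 B had 0 counts. Ntrk2 with free L9 was at 1.25 (SE 0.52, adjusted p = 0.456). Without free L9 B, Ntrk3 in that comparison turned to -0.97, and without 5.3 mg/kg B, Ntrk2 at 5.3 mg/kg against NT turned to -0.12.

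Matched at 5.3 mg/kg, the members of pacDNA-L9 against free L9 spanned -1.25 (Ntrk3) to 1.02 (Bdnf), with a smallest adjusted p of 0.776, and Bdnf was at 2.39 within set 1. Against pacDNA-Scr they spanned -0.72 (Ngfr) to 1.40 (Ntrk3), with a smallest adjusted p of 0.929. Without free L9 B the Ntrk3 difference from free L9 was 1.08. No difference between the conjugate, the free oligonucleotide and the scrambled conjugate was detectable for these genes at this number of mice.

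Of the other ligands, receptors and sorting receptors, 8 of 10 genes were tested. Sort1 encodes sortilin, a sorting receptor that binds pro-neurotrophins with p75. It fell in NT against WT, and no other gene of the list passed the test there (12.5% called, beside 4.97% of all genes). WT libraries held 130, 174, 161, 125 and 106 CPM, and NT ranged from 45.7 to 92.0 CPM with a median of 67.2. All NT libraries lay below all WT libraries. The log2 fold change was -1.05 (SE 0.16, adjusted p = 8.15e-05) in NT and -1.12 (SE 0.21, adjusted p = 9.00e-04) at 42.4 mg/kg against WT, where the libraries held 60.4, 72.5 and 59.2 CPM.

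Sort1 at 42.4 mg/kg differed from NT by -0.07 (95% interval -0.46 to 0.32, adjusted p = 0.911), with a sign that turned under other settings. At 42.4 mg/kg against WT, Sort1 was again the only gene of the list called (12.5%, beside 7.90% of all genes). The list's median log2 fold change was 0.03 in NT against WT, beside 0.03 over all genes, and -0.65 at 42.4 mg/kg against WT, beside -0.02.

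Among 7 tested genes of precursor processing, 2 rose in NT against WT and 0 fell (28.6% called, beside 4.97% of all genes), with a list median log2 fold change of -0.29 beside 0.03 over all genes. At 42.4 mg/kg against NT 2 again rose and 0 fell, beside 2.57% of all genes called, with a list median of 0.32 beside -0.06. Mmp3 was called in both. Mmp3 encodes stromelysin-1, a matrix metalloproteinase. It was at 0.212 CPM ± 0.107 (SD, n = 5) in WT, 0.848 ± 0.422 (n = 8) in NT and 4.04 ± 0.425 (n = 3) at 42.4 mg/kg. Its log2 fold change was 1.98 (SE 0.49, adjusted p = 0.0156) in NT against WT and 2.24 (SE 0.48, adjusted p = 0.00803) at 42.4 mg/kg against NT. All 3 libraries at 42.4 mg/kg, at 3.99, 4.49 and 3.64 CPM, were above every NT library.

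Against WT the 42.4 mg/kg libraries were higher in Mmp3 by 4.22 on the log2 scale (SE 0.59, adjusted p = 3.06e-05). The WT libraries held only 2 to 6 counts of Mmp3 and the NT libraries 5 to 34, so these fold changes rest on few reads. The call against NT at 42.4 mg/kg was lost without 42.4 mg/kg B, at 2.16, and with the style of the deposited column names as a covariate, at 2.04. In NT against WT it was lost without WT 3 or WT 4, at 1.80 in each. The macrophage marker sums given with Bdnf were also higher at 42.4 mg/kg than in every NT library. At 5.3 mg/kg they were at 97.7 to 124 CPM, again above every NT library, and the mean of Mmp3 was 0.670 CPM, beside 0.848 in NT. At 21.2 mg/kg they were at 81.0 to 147 CPM, with an Mmp3 mean of 1.60 CPM. Brush had sums of 123 to 134 CPM and an Mmp3 mean of 1.12 CPM, and pacDNA-Scr 73.8 to 97.8 and 1.62 CPM. Free L9 had sums of 45.0 to 71.2 CPM and an Mmp3 mean of 0.713 CPM. The part of macrophages in the Mmp3 values was not tested.

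**Figure D5:**
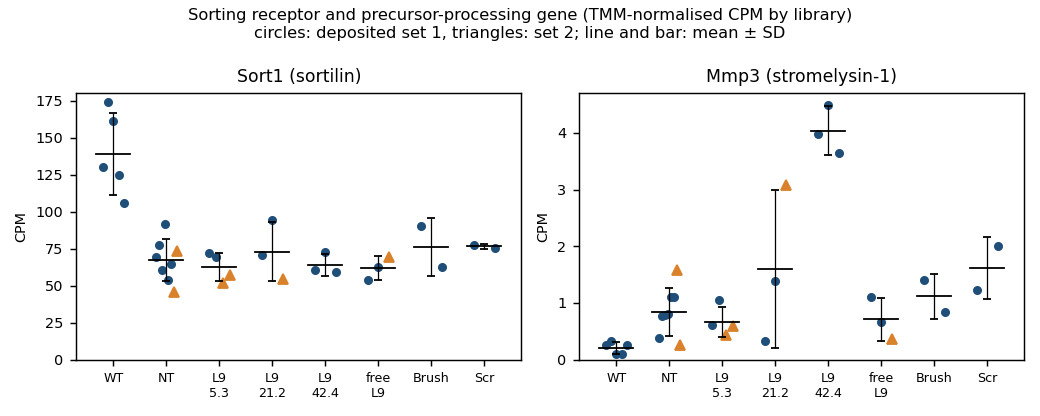
CPM of Sort1 and Mmp3 (linear axes from 0) in every library by group, with mean ± SD. Sort1 is higher in WT, with a mean of 139 CPM, than in all other groups, while Mmp3 is highest at 42.4 mg/kg, with a mean of 4.04 CPM.

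Of 44 Trk signalling genes downstream of the receptors, edgeR called 0 in NT against WT, beside 4.97% of all genes. At 42.4 mg/kg against NT it called 1 (2.27%, beside 2.57% of all genes), the regulatory PI3-kinase subunit Pik3r1, which rose by 1.29 on the log2 scale (SE 0.29, adjusted p = 0.0134). Pik3r1 was at 30.3 to 67.6 CPM in NT and at 69.8, 160 and 80.0 CPM at 42.4 mg/kg, above every NT library, and the call was lost without 42.4 mg/kg B, at 0.83, and with the column name style as a covariate, at 1.03. Against WT 3 were called at 42.4 mg/kg (6.82%, beside 7.90% of all genes), so the share of the list called was near that of all genes in both comparisons at this dose. Pik3r1 rose by 1.41 (adjusted p = 0.00605), the catalytic subunit Pik3cb rose by 0.88 (adjusted p = 0.0138), and the small GTPase Nras fell by 0.51 (adjusted p = 0.0150). Without 42.4 mg/kg B the calls of Pik3r1 (0.95) and Pik3cb (0.75) were lost, and without 42.4 mg/kg C that of Nras (-0.44).

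The list's median log2 fold change was -0.05 in NT against WT, 0.00 at 42.4 mg/kg against NT and -0.08 against WT, beside 0.03, -0.06 and -0.02 over all genes. Of 15 tested p75 adaptor and effector genes, 1 was called in each comparison with WT (6.67%, beside 4.97% and 7.90% of all genes). Mapk9, encoding the kinase JNK2, fell by 0.39 (adjusted p = 0.0371) in NT against WT and by 0.51 (adjusted p = 0.0284) at 42.4 mg/kg against WT. Both Mapk9 calls were near the threshold: that of NT was lost without any of WT 2 to 4 or NT 3, 5, 6 or 7 (log2 fold changes of -0.39 to -0.27), and that of 42.4 mg/kg without WT 2, WT 3 or any of its own 3 libraries (-0.55 to -0.39). None of the 4 pathway lists had a called gene in the other 7 comparisons.

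The genes whose log2 CPM over the 24 set 1 libraries ran most like that of each member were ranked among 12606 genes with a mean of at least 1 CPM. For Ntf5 these were Ptx3 (r = 0.88), Nfatc2 (0.83), Ttc7 (0.83), 3300002P13Rik (0.83) and Gm50285 (0.82). Ntf5's neighbour Kcna7 ranked 93 at 0.68, and Ngfr 516 at 0.51. For Ntf3 they were Sirt6 (0.81), Tbx2 (0.80) and Spata2l (0.77), for Bdnf Golga2 (0.86), Pirb (0.84) and Rnh1 (0.84), and for Ngfr Ttyh2 (0.86), Sec14l5 (0.85) and Ky (0.82). The Trk receptors had the highest values, with Pde3b (0.92), Prkar2b (0.92) and Tmem135 (0.91) for Ntrk2 and Pygl (0.95), Sfxn1 (0.95) and Plin1 (0.94), the lipid droplet coat gene, for Ntrk3. These values describe libraries that share groups and depth, and carry no p.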

How the data were processed

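Poly-A RNA of mouse quadriceps was sequenced as paired reads. The authors deposited 1 table of raw read counts per Ensembl gene. Per the submitters' processing notes HISAT2 2.0.5, DESeq2 and the GRCm39 build were used, the study's methods list Rsubread among the R packages used, and which tool made the counts, with which strand setting, is not given in the sources used here. The table held no columns of comparisons. Libraries were mapped to groups by the labels, and the WT library without a number was mapped to its group alone. Replicates are separate mice.

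Counts were analysed in R 4.3.3 with edgeR 4.0.16: filterByExpr left 17518 of 56748 genes, TMM factors scaled the libraries, and 1 quasi-likelihood fit of all 30 libraries gave each comparison, with Benjamini-Hochberg adjustment over all genes tested and a threshold of 0.05. CPM values are TMM-scaled. SE and 95% intervals come from that fit. The code was tested on simulated data. Intervals of CPM were not computed, and precision is given by the spread between mice.

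The members and lists were chosen with earlier results of these data known. Named genes were all members, Sort1, up to 4 called genes with the largest change of each pathway list, genes overlapping a member, the neighbours of Ntf5 and the genes most correlated with each member, apart from some genes that are not reported here. Adipocyte genes were listed after the data were seen, and Plin4 was left out after its level was seen because fibres also express it. Gene positions, transcripts and sequences are from GRCm39 with the GENCODE annotation.

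Alternatives were DESeq2 1.42.0, other scalings and filters, set 1 alone, covariates for set, sex and the style of the deposited column names, fits of only the groups compared, a replicate block, leaving out each library, and, chosen after seeing the data, an adipocyte covariate and fits without the libraries at 0 mitochondrial counts or highest in adipocyte markers. Letters A to C are shared by pacDNA-L9 5.3 mg/kg and free L9, and same-letter libraries deviated together (r = 0.53, 0.38 and 0.712), so this comparison was also fitted as paired. No label gives the letters as a pairing of mice. Both C libraries are of set 2, and both B libraries were the highest of their groups in adipocyte markers. The numbers of NT and WT are not given as a pairing by any label, and same-numbered libraries had a mean r of 0.106, beside -0.0368 for other numbers.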

Additional observations from a re-analysis of the deposited data

Results flagged for a closer look

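Over 24 sets of values from groups of 4 to 10 libraries, 3 held a library far from the rest of its group, where chance alone gives about 1 in 20. Ntrk2 in NT 4 was at 12.3 CPM, and the next highest NT library was at 3.39. Ntrk3 in NT 4 was at 8.61 CPM, and the next at 1.54. Ntrk2 in pacDNA-L9 5.3 mg/kg B was at 11.4 CPM, and the next at 4.18. These are the libraries highest in adipocyte markers within their groups, at 2268 and 1196 CPM, and the part of that level was tested only by the fits with the covariate and without those libraries. Groups of 3, such as free L9, were not examined in this way.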

How the results depend on the processing

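The number of members called in NT against WT, 1 with all libraries, was 3 (Ntf5, Ntrk2 and Ntrk3) without the 3 libraries highest in adipocyte markers, where 8.11% of all genes were called in place of 4.97%. Those libraries were chosen after the data were seen, and NT 4 is among them. The number was 1 to 2 when leaving out each library, with 2 without NT 4, where 861 of 17474 genes were called. At 42.4 mg/kg against NT it was 1 (2.57% of all genes called). It was 2 by DESeq2 (7.70%), 0 with the column name style as a covariate (0.695%) and 0 to 1 when leaving out each library. It was 0 without 42.4 mg/kg B, where 63 of 17479 genes were called, or C, where 326 of 17466 were. There the log2 difference of Ntf5 was -0.92 without B, -1.02 without C and -1.21 with the name style. In NT against WT and at 42.4 mg/kg against NT, the member called with all libraries was Ntf5. Those libraries chose the gene, and nothing is read from its call being kept or lost. At 42.4 mg/kg against WT the number of members called was 0 (7.90% of all genes called), but 2 (Bdnf and Ngfr) with only those groups (14.5%). It was 1 (Ngfr) within set 1 (10.8%), with the set as a covariate (9.98%) and by DESeq2 (11.3%). It was also 1 (Ngfr) without the libraries at 0 mitochondrial counts (9.54%) and with the adipocyte covariate (8.19%). In the other comparisons it was 0 under every alternative run.

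Log2 fold changes near 0 turned sign. Ntf3 in NT against WT was 0.00 without a filter, 0.18 within set 1, 0.07 with the set and 0.19 with the name style as covariates, 0.17 without the libraries at 0 mitochondrial counts and 0.02 without those highest in adipocyte markers, and -0.16 to 0.12 leaving out each library. Ngfr there was 0.12, 0.11, 0.12 and 0.12 within set 1, with the set, with the name style and without the libraries at 0 mitochondrial counts, and -0.20 to 0.11 leaving out each library. Ntf5 at 5.3 mg/kg against NT was 0.08, 0.02, 0.09 and 0.07 under the same 4, and -0.27 to 0.03. Ntrk2 at 42.4 mg/kg against NT was -0.04 within set 1, -0.01 with the set, -0.21 with sex and -0.02 without the libraries at 0 mitochondrial counts. Sort1 there was 0.09 with the name style and -0.17 to 0.01 leaving out each library. Ntf5 with free L9 against NT was -0.02 with library size alone, -0.02 with the name style and -0.04 without the libraries at 0 mitochondrial counts, and -0.21 to 0.20. Ntf5 at 5.3 mg/kg against free L9 was 0.01, 0.05, 0.11 and 0.11 with library size alone, within set 1, with the name style and without those libraries, and -0.32 to 0.13. Ntrk3 there was 0.14 with the adipocyte covariate and 0.37 without the libraries highest in those markers, and -1.95 to 1.08. Kcna7 at 42.4 mg/kg against WT was 0.11 with the name style. Leaving out each library moved Ntrk2 at 5.3 mg/kg against NT over -0.12 to 0.98, Ntf3 at 42.4 mg/kg over -0.69 to 0.09 against NT and -0.70 to 0.08 against WT, Ntrk3 with free L9 over -0.97 to 2.54, Ntf5 with Brush over -0.33 to 0.58 and Ntf5 at 42.4 mg/kg against WT over -0.25 to 0.14. The causes were not tested.

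With the replicate block, NT against WT called 631 genes, and 680 without it on the same libraries. The r between same-numbered libraries was -0.0468 to 0.192, with a mean of 0.106, beside a mean of -0.0368 between other numbers. No label gives the numbers as a pairing. Ntf3 was then 0.36 (0.36 without the block) and Ngfr 0.30 (0.27). For 5.3 mg/kg the same libraries gave 0 genes with the block and 0 without it against free L9, and 5 with it and 0 without it against pacDNA-Scr, and the block changed no call of a member.

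All genes called by DESeq2 came to 1971 in NT against WT, 1380 at 42.4 mg/kg against NT and 2085 against WT, beside 871, 450 and 1384 by edgeR. Free L9 against NT called 22 genes, but 354 within set 1, 165 with the set as a covariate 397 without the libraries at 0 mitochondrial counts and 0 with the name style, and 5.3 mg/kg against free L9 called 2, but 145 within set 1, 126 with the set and 0 without the libraries at 0 mitochondrial counts. DESeq2 called 311 for pacDNA-Scr against NT and 330 for 5.3 mg/kg against pacDNA-Scr, beside 0 and 0 by edgeR. Without 42.4 mg/kg B, edgeR called 63 against NT. Within set 1 edgeR called 428 genes at 42.4 mg/kg against NT and 1711 against WT. With the name style as a covariate there, it called 110 and 898. In all, 1104 of 1227 alternative log2 fold changes of 53 named results kept their direction and side of the threshold. A filter of at least 10 counts in every library gave no value for Ntf3, Bdnf, Ntrk3 and Ngfr. Few counts limit Ngfr, Ntf3, Ntrk3, Bdnf and Mmp3, and groups of 2 to 4 mice limit all treatments.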
